A study of Mus musculus with 24 samples.

Results

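The SoxC genes Sox4, Sox11 and Sox12 were described in RNAseq of mouse embryonic stem cells (ESCs) and of cultures differentiated from them towards neural progenitor cells (NPCs). They were chosen by name, as the SoxC group of the Sox family, and are 3 of the 21909 gene symbols in the RNAseq tables. A filter of at least 1 RPKM (reads per kilobase of exon, scaled to the size of the library) in at least 3 of the 6 samples left 7835 genes, with Sox4, Sox11 and Sox12 among them. Sox12 was above 1 RPKM in every sample. Sox4 and Sox11 passed the filter through the NPC samples only, so that a difference between the cell types was built into their passing.

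Sox proteins are transcription factors that bind and bend DNA through an HMG box, and the SoxC proteins also carry a transactivation domain at their C-terminal end. Sox4 and Sox11 are best known in the nervous system for switching on neuronal genes in precursors that leave the cell cycle, and both also act in the mesenchyme of the developing heart and skeleton. Sox12 is the weakest activator of the group in reporter assays.

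The study mapped genomic regions at the nucleolus (nucleolus-associated domains, NADs) in ESCs and NPCs and measured RNA of the same cell types. RNAseq comprised 3 ESC and 3 NPC samples of polyadenylated RNA, each from a separate culture dish. In Nucleolar-DamID, a fusion of the methyltransferase Dam to histone H2B is sent to the nucleolus by a localization signal (H2B-Dam-NoLS), and the fusion without that signal (H2B-Dam) is the control, with 2 samples of each per cell type. The ESCs were of the line E14, grown feeder-free on gelatin with LIF and 2 kinase inhibitors. The NPCs came from the same line after 8 days as embryoid bodies in suspension, with 2 µM retinoic acid in the last 4 days, and are labelled as Pax6-positive radial glia precursors. In both cell types, Shield1 (1 µM) and doxycycline (100 ng/ml) induced the Dam fusions over 15 h, whereas the RNAseq samples are labelled as untreated. The tables of the cell types are separate and no label names a batch across them, and an effect of batch cannot be told apart from one of cell type.

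The depth of each library was estimated from the size of the step that a single read makes in RPKM times exon length. It came to about 34000000, 33700000 and 30800000 reads for ESC replicates 1, 2 and 3 and to about 30100000, 27200000 and 32300000 reads for NPC replicates 1, 2 and 3. ESC replicate 3 stood apart from the other libraries. Its log2 values correlated across genes with ESC replicates 1 and 2 at r = 0.963 and 0.966, against 0.998 between those, and 28.7% of its summed RPKM lay on genes with symbols starting in Rpl or Rps (mostly ribosomal protein genes), against 18.4% and 19.0%. Relative to the mean of the other ESC libraries, on the log2(RPKM + 1) scale, it was higher for short genes (a median difference of 0.71 over 198 genes with under 1 kb of exon) and lower for long ones (-0.33 over 2126 genes with 6 kb and over). Sox11, with 8311 bases of exon, belongs to the longest class, and Sox4 (4795 bases) and Sox12 (4453 bases) belong to that of 3 to 6 kb, whose median was -0.04. ESC replicate 3 was lower than the other ESC libraries for each of them, by -0.33 for Sox4, -0.15 for Sox11 and -0.15 for Sox12 on that scale. The scale understates differences of low genes. In RPKM, Sox4 was at 0.420 against 0.729 and 0.835, Sox11 at 0.532 against 0.707 and 0.689, and Sox12 at 8.36 against 8.75 and 10.1. Results are therefore also given without this library.

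The labels were checked with marker genes. A listed gene that lay below 1 RPKM in every sample of one cell type passed the filter only through the other and had to be higher there, so the lists were also counted without a filter, where 39.5% of 18360 genes rose and 22.9% fell (limma, adjusted p under 0.05). Of 10 pluripotency markers, 10 fell with and without the filter, 9 of which passed it through ESCs only, with the largest log2 changes for Dppa5a (-10.51), Pou5f1 (-7.19) and Nanog (-6.56). Pou5f1, the core pluripotency factor, went from 155.9 ± 40.1 to 0.0532 ± 0.0135 RPKM (SD, n = 3 per cell type throughout). The list summed to 1826, 1833 and 3763 RPKM in ESCs, mostly Dppa5a, and to 3.85, 3.33 and 3.43 RPKM in NPCs, mostly Klf4. Pax6 was at 0.0134, 0.0167 and 0.00457 RPKM in ESCs and at 1.55, 1.42 and 1.67 RPKM in NPCs (log2 change 1.33, limma with Benjamini-Hochberg adjustment, adjusted p = 6.24e-07). Most early neuron markers were low in both cell types. Of 20 such genes, 6 passed the filter, of which 4 rose (Dpysl3 by 1.52, Ina by 1.04, Dpysl5 by 0.67 and Nefl by 0.34 on the log2 scale) and 2 fell (Stmn2 by 2.25 and Tubb3 by 0.69). Without a filter, 16 of the 20 rose, 3 fell (Tubb3, Stmn2 and Mapt) and 1 did neither. Elavl3, an RNA-binding protein of neurons, rose from 0.0250 to 0.826 RPKM in the mean. In all, 14 were below 1 RPKM in every NPC sample, and the list summed to 15.7, 17.1 and 19.1 RPKM in ESCs, mostly Tubb3 and Stmn2, and to 19.7, 17.2 and 19.1 RPKM in NPCs. Its most abundant gene in NPCs, Tubb3 (a neuronal beta tubulin), fell from 7.28 ± 0.763 to 4.15 ± 0.508 RPKM, a fall that did not pass the test after rescaling to equal RPKM totals (limma, adjusted p = 0.0584). Dcx, a microtubule protein of migrating neurons, was listed at 0 in ESCs and at 1.05, 0.822 and 0.874 RPKM in NPCs. The NPC cultures thus had high SoxC RNA with low levels of most neuron markers, and the genes are called here by their family name and not as markers of neurons.

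The SoxC genes were far higher in NPCs than in ESCs. Sox11, a single-exon gene at chr12:27334264-27342574 on the minus strand of GRCm38 (ENSMUSG00000063632.6), was at 0.707, 0.689 and 0.532 RPKM in the ESC samples and at 49.5, 51.6 and 54.5 RPKM in the NPC samples. The groups were far apart, with the lowest NPC sample 70.1-fold above the highest ESC sample. The means of 0.642 ± 0.0962 and 51.9 ± 2.48 RPKM differed 80.7-fold, and 74.3-fold without ESC replicate 3. On the log2(RPKM + 1) scale, which understates changes of low genes, Sox11 rose by 5.01 (SE 0.088, 95% interval 4.80 to 5.22; limma with Benjamini-Hochberg adjustment over 7835 genes, adjusted p = 1.86e-07), rank 18 of all genes tested. The RPKM correspond to about 200, 193 and 136 reads in ESCs and 12400, 11682 and 14609 reads in NPCs. In these bulk samples, more cells with the gene and more RNA per cell cannot be told apart.

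Sox4 is also a single-exon gene, at chr13:28948919-28953713 on the minus strand (ENSMUSG00000076431.4). It was at 0.729, 0.835 and 0.420 RPKM in ESCs and at 17.7, 21.4 and 23.1 RPKM in NPCs. ESC replicate 3 was the lowest sample, with about 62 reads against 119 and 135, and the SD in ESCs was 32.6% of the mean. In NPCs the gene had about 2562, 2796 and 3576 reads, and the groups did not overlap. The means of 0.661 ± 0.215 and 20.8 ± 2.74 RPKM differed 31.4-fold, or 26.5-fold without that library. Sox4 rose by 3.71 on the log2(RPKM + 1) scale (SE 0.141, 95% interval 3.37 to 4.05; limma, Benjamini-Hochberg adjusted p = 1.29e-06), rank 63. Its value has a limit of its own, since the long noncoding gene Gm26735 (chr13:28943048-28951671, plus strand) covers part of it on the other strand. Of the 4696 windows of 100 bases in the Sox4 transcript, 53.6% also occur in Gm26735 on the opposite strand. Gm26735 was not found under that symbol in the tables. The study's methods name a kit that keeps the strand and the labels a different kit, and whether strand was used in counting is not given in the sources used here, so that reads of both genes cannot be told apart.

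Sox12, at chr2:152393611-152398063 on the minus strand (ENSMUSG00000051817.8), differed from the other SoxC genes by its level in ESCs. It was at 8.75, 10.1 and 8.36 RPKM in the ESC samples and at 49.1, 49.2 and 45.7 RPKM in the NPC samples. Its ESC mean of 9.06 ± 0.900 RPKM was higher than 79.9% of the genes tested, whereas Sox4 and Sox11 were higher than 14.1% and 13.7%. In NPCs the gene reached 48.0 ± 1.99 RPKM, 5.30-fold above ESCs and 5.10-fold without ESC replicate 3. The reads came to about 1326, 1512 and 1145 in ESCs and 6591, 5962 and 6567 in NPCs, and the groups did not overlap. Sox12 rose by 2.29 on the log2(RPKM + 1) scale (SE 0.105, 95% interval 2.03 to 2.54; limma, Benjamini-Hochberg adjusted p = 3.07e-06), rank 273.

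Each of the 3 genes thus rose by at least 2-fold with an adjusted p under 0.05. For Sox4 and Sox11, a difference was built into passing the filter. Each gene also rose without a filter (limma, adjusted p = 1.06e-05 for Sox4, 1.57e-06 for Sox11 and 1.09e-05 for Sox12). Changes of this kind were common in the comparison: 36.9% of the genes tested rose and 33.3% fell, and 16.6% rose and 12.1% fell by at least 2-fold. Of the 18360 genes without a filter, 39.5% rose and 22.9% fell, with 1315 rising and 967 falling by at least 2-fold. The exact two-sided permutation test over the samples gave p = 0.1 for each SoxC gene, the smallest value that 3 against 3 samples allow. NPC samples had lower RPKM totals (85295 to 86521) than ESC samples (104016 to 139988), and rescaling moved the median log2 change of all genes from 0.02 to 0.17 (median ratio) or 0.33 (each sample to the mean total, chosen after seeing the data). Relative to that median, the changes were 4.98, 4.98 and 4.97 for Sox11, 3.69, 3.68 and 3.66 for Sox4 and 2.26, 2.31 and 2.36 for Sox12, as deposited and under these scalings in the same order. The split of all genes moved as well, from 2894 that rose and 2606 that fell as deposited to 3658 and 1612 with the mean total, and from 1301 and 945 to 1777 and 527 by at least 2-fold. Rescaling to equal totals of 1000000, as planned, also makes the pseudocount of 1 small against the values, and the changes of 6.08, 4.74 and 2.37 relative to its median of 0.45 were close to those with a pseudocount of 0.1 alone (6.10, 4.77 and 2.36).

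**Figure D1:**
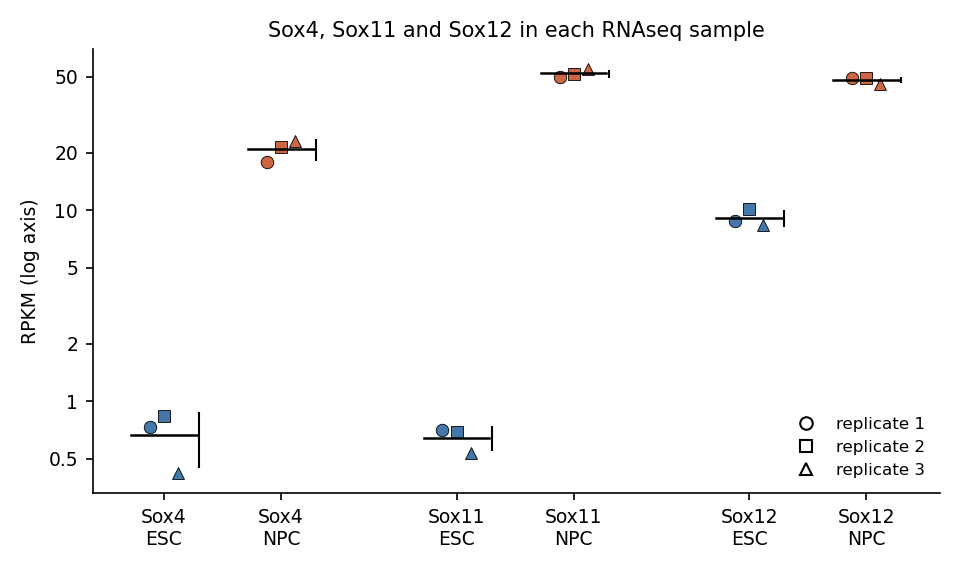
RPKM on a log axis of Sox4, Sox11 and Sox12 in each RNAseq sample, with ESC samples in blue, NPC samples in orange and the replicate number as the symbol. Horizontal lines are means and the vertical lines beside them 1 SD (n = 3). Sox4 and Sox11 lie below 1 RPKM in every ESC sample, and Sox12 lies between 8.36 and 10.1 RPKM there.

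The order of the SoxC genes differed between the cell types. In ESCs, Sox12 was the highest, and Sox4 and Sox11 did not differ beyond their spread. In NPCs, Sox11 had the highest mean, followed by Sox12, and Sox4 was the lowest in each sample. Sox11 was above Sox12 in every NPC sample, with 49.5 against 49.1 RPKM in replicate 1, 51.6 against 49.2 RPKM in replicate 2 and 54.5 against 45.7 RPKM in replicate 3, and their means of 51.9 and 48.0 RPKM were further apart than the SD of either gene. By level, Sox11 was at rank 196, Sox12 at rank 212 and Sox4 at rank 538 of all genes in NPCs.

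The changes of the SoxC genes were compared with each other through the log2 ratio of RPKM + 1 in each sample, over the 3 pairs. For Sox12 to Sox11, the ratio was 2.52, 2.71 and 2.61 in ESCs and -0.01, -0.07 and -0.25 in NPCs, a difference of -2.72 (SE 0.092). Sox12 was 14.1 times Sox11 by mean RPKM in ESCs and 0.925 times in NPCs. Sox12 was thus far above Sox11 in ESCs and slightly below it in NPCs. For Sox12 to Sox4, the difference was -1.43 (SE 0.150), or -2.61 without the pseudocount, and the ratio of mean RPKM went from 13.7 to 2.31. The ratio of Sox11 to Sox4 differed by 1.30 (SE 0.098), with 0.971 times as much Sox11 as Sox4 in ESCs and 2.50 times in NPCs. In each pair the ESC and NPC samples did not overlap, and the exact permutation test gave p = 0.1 and an adjusted p of 0.1 for each, which 3 against 3 samples cannot go below.

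Together, the SoxC genes summed to 10.2, 11.6 and 9.31 RPKM in ESCs and to 116.4, 122.2 and 123.3 RPKM in NPCs, an 11.6-fold difference of the means (10.4 ± 1.16 and 120.6 ± 3.71; exact permutation test, p = 0.1). The makeup of the sum differed as well. Sox12 made up 85.9%, 86.9% and 89.8% of it in the ESC samples and 42.2%, 40.2% and 37.1% in the NPC samples, or 87.5% ± 2.03 of it in ESCs and 39.8% ± 2.57 in NPCs. The share of Sox11 was 6.20% ± 0.654 in ESCs and 43.0% ± 1.08 in NPCs, and that of Sox4 6.29% ± 1.54 and 17.1% ± 1.78. Sox11 and Sox12 thus held similar parts of the sum in NPCs, and Sox4 the smallest part.

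Of the summed RPKM of all 20 Sox genes of the tables, most lay on Sox2 in ESCs and on the SoxC genes in NPCs. Sox2, a core pluripotency factor that is also expressed in neural stem cells, made up 86.6% ± 1.00 of the summed Sox RPKM in ESCs and 5.12% ± 0.710 in NPCs. The SoxC genes made up 5.69%, 6.48% and 5.64% in the ESC samples and 75.0%, 73.2% and 72.4% in the NPC samples. As deposited, the sum over the 20 genes was 174.3 ± 8.00 RPKM in ESCs and 164.1 ± 7.90 RPKM in NPCs, with samples that overlapped (exact permutation test, p = 0.3). NPC samples had lower RPKM totals over all genes (85295 to 86521) than ESC samples (104016 to 139988). The order of the cell types in this sum therefore depends on the scaling, and it was not tested after rescaling. The shares within a sample do not depend on it.

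**Figure D2:**
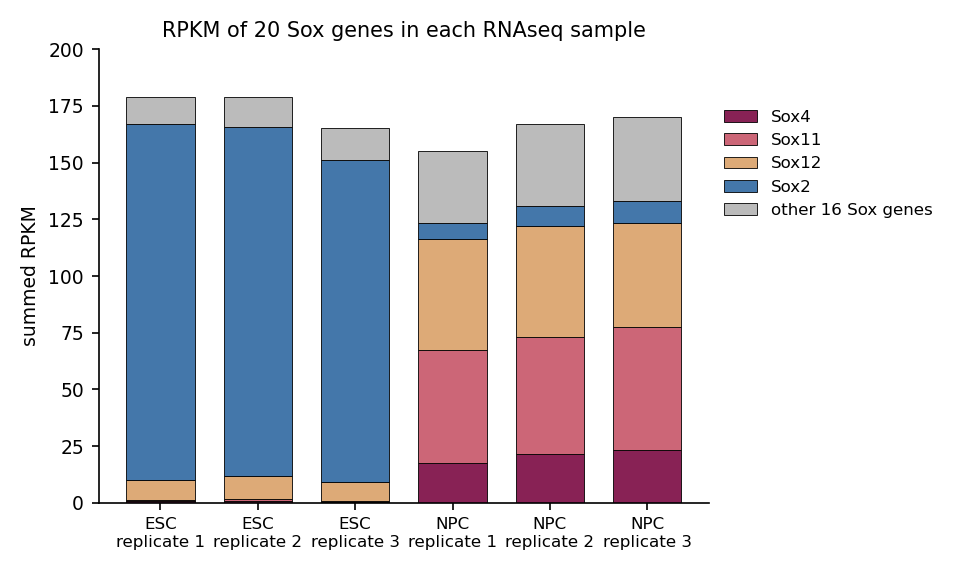
Summed RPKM of the 20 Sox genes in each RNAseq sample, stacked by gene, with the genes other than Sox4, Sox11, Sox12 and Sox2 in grey. The totals, of RPKM as deposited and not rescaled, lie between 155.2 and 179.0 RPKM in the 6 samples. The SoxC part is 5.64% to 6.48% of the bar in ESCs and 72.4% to 75.0% in NPCs.

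Of the 17 other Sox genes, 10 were tested, of which 6 rose, 3 fell and 1 did neither, and each of the 6 passed the filter through NPCs only. Without a filter, 11 of 16 rose, 4 fell and 1 did neither (68.8% and 25.0%, against 39.5% and 22.9% of all genes), with a median log2 change of 0.07 against 0.01 over all 18360 genes. None of the 17 reached the level of Sox4, the lowest SoxC gene, in NPCs. Sox9, a factor of glial and cartilage precursors, was the most abundant of them at 10.4 ± 0.469 RPKM, up from 0.0204 ± 0.00934 RPKM (log2 change 3.48, limma, Benjamini-Hochberg adjusted p = 1.86e-07). The SoxB1 genes, which keep neural precursors undifferentiated, moved in opposite directions. Sox2 fell by 4.02 on the log2 scale, from 150.9 ± 8.17 to 8.43 ± 1.55 RPKM, whereas Sox3 rose by 2.92 to 8.80 ± 1.76 RPKM and Sox1 by 0.73 to 1.40 ± 0.363 RPKM. The SoxF genes, known from endothelium and endoderm, rose by 3.03 (Sox18), 1.83 (Sox7) and 1.16 (Sox17). Of the others, Sox15 fell by 3.15 and Sox21 by 0.72, while Sox13 had a log2 change of -0.29 (limma, adjusted p = 0.0575), which passed the test without ESC replicate 3 (-0.40, adjusted p = 0.000343). Sry, Sox14, Sox5, Sox6, Sox8, Sox10 and Sox30 did not pass the filter on low values.

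POU factors of class III bind DNA next to Sox proteins on neural enhancers, and Pou3f2 is a known partner of SoxC proteins. Of 7 listed POU genes, 4 passed the filter, each through NPCs only, so that they had to be higher there. Without a filter, 4 rose, 2 fell and 1 did neither (57.1% and 28.6%, against 39.5% and 22.9% of all genes). Pou3f2 rose by 3.17 on the log2 scale to 8.58 ± 1.14 RPKM, Pou3f3 by 2.28, Pou3f4 by 2.22 and Pou3f1 by 1.52. The list summed to between 1.02 and 1.40 RPKM in ESCs and 18.2 and 21.4 RPKM in NPCs. Sox4 alone was higher than Pou3f2 in each NPC sample, at 17.7 against 7.74 RPKM, 21.4 against 8.12 RPKM and 23.1 against 9.87 RPKM. The class IV genes Pou4f1, Pou4f2 and Pou4f3, factors of sensory neurons, did not pass the filter. Without it, Pou4f1 fell, from 0.731 ± 0.0527 to 0.216 ± 0.0248 RPKM, as did Pou4f2, from 0.172 to 0.0252 RPKM in the mean.

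Proneural factors act before the SoxC proteins in the making of neurons. Of 18 listed proneural and neuronal regulators, 7 passed the filter, each through NPCs only. Without a filter, 14 rose, 2 fell (Neurog3, from 0.201 to 0.0337 RPKM in the mean, and Ebf1, from 0.0266 to 0.00945 RPKM) and 1 did neither, or 82.4% and 11.8% of 17 against 39.5% and 22.9% of all genes. Among those that rose were Neurog1 (2.50, to 5.08 ± 1.09 RPKM) and Nhlh2 (2.22, listed at 0 in ESCs and at 3.67 ± 0.540 RPKM in NPCs). The list as a whole summed to 21.1, 20.5 and 25.3 RPKM in NPCs, less than Sox11 alone. Of the 18, 11 were below 1 RPKM in every NPC sample, among them Neurod6, which was listed at 0 in all 6 samples.

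Of 10 genes that have been linked to SoxC proteins, as targets or binding partners, 6 passed the filter, of which 3 rose, 1 fell and 2 did neither (50.0% and 16.7%, against 36.9% and 33.3% of all genes tested). Without a filter, 7 rose, 1 fell and 2 did neither (70.0% and 10.0%, against 39.5% and 22.9%). Hes5, an effector of Notch signalling, rose by 2.06 from a listed 0 in ESCs. Tead2, a factor at the end of the Hippo pathway and a known target of SoxC proteins, was the most abundant in NPCs and rose by 1.57, from 7.14 ± 0.356 to 23.1 ± 1.03 RPKM (limma, Benjamini-Hochberg adjusted p = 7.86e-06). Sdcbp, which encodes syntenin, a protein that binds Sox4, rose by 1.27 from 1.18 ± 0.0262 to 4.27 ± 0.334 RPKM. Tubb3, a neuronal target, fell as given above. Plxna1 had a log2 change of 0.50 (adjusted p = 0.162) and Ezh2 of -0.15 (adjusted p = 0.116), whose sign was the opposite under each other scaling. Without ESC replicate 3, Plxna1 (0.15, adjusted p = 0.0238) and Ezh2 (-0.11, adjusted p = 0.0451) passed the test. The neuronal genes Map2, Dcx and Nrcam and the regulator Prox1 did not pass the filter and rose without it, Prox1 from 0.00335 to 0.490 RPKM, Map2 from 0.0133 to 0.147 RPKM and Nrcam from 0.00752 to 0.0843 RPKM in the mean.

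The REST complex represses neuronal genes in other cells. Of 9 listed genes of REST and its corepressors, 4 rose, 2 fell and 3 did neither (44.4% and 22.2%, against 36.9% and 33.3% of all genes tested), with a median log2 change of -0.04 against 0.02. Rest fell from 15.4 ± 4.95 to 7.17 ± 0.277 RPKM (-0.95, limma, adjusted p = 0.0111), a call that was lost after rescaling to equal totals (-0.61, adjusted p = 0.179), and Hdac1 fell by 1.05. Kdm1a (-0.04), Hdac2 (-0.10) and Sin3a (-0.18) did not pass the test and took the opposite sign after rescaling to equal totals, where Kdm1a (0.37) and Hdac2 (0.31) passed it, whereas Sin3a passed it at -0.39 without ESC replicate 3. Rcor1 rose by 0.92 and Ehmt2 by 0.80. Rcor2, the most abundant at 23.2 ± 2.17 RPKM in NPCs, rose by 0.40 (adjusted p = 0.0225) but did not pass the test without ESC replicate 1 (0.0704), ESC replicate 2 (0.0611), NPC replicate 2 (0.0874) or NPC replicate 3 (0.0904), given as adjusted p.

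SoxC genes are expressed in more tissues than the nervous system, and markers of neural progenitors and of other tissues were counted as well, to be read against the 39.5% of all genes that rose and the 22.9% that fell without a filter. Of 13 neural progenitor markers, 10 were tested, of which 6 rose, 1 fell (Sox2) and 3 did neither, and 4 of the 6 (Pax6, Sox1, Sox3 and Hes5) passed the filter through NPCs only. Without a filter, 9 rose, 1 fell and 3 did neither (69.2% and 7.69%). Their sum was 212.5, 211.4 and 210.4 RPKM in ESCs, mostly Sox2, and 115.1, 125.7 and 130.8 RPKM in NPCs. The most abundant of them in NPCs was Vim at 45.6 ± 2.77 RPKM (log2 change 0.21, adjusted p = 0.204; 0.32 and adjusted p = 0.00208 without ESC replicate 3, and past the threshold under each other scaling), and Nes, an intermediate filament of neural stem cells, rose by 2.83 to 30.6 ± 1.79 RPKM.

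Of 14 mesenchyme markers, 10 passed the filter, each through NPCs only, and 14 rose without a filter (100%). Their sum went from 0.440, 0.435 and 0.277 RPKM in ESCs to 113.2, 121.0 and 116.9 RPKM in NPCs. Foxf1, a factor of visceral mesenchyme, was the most abundant at 26.7 ± 2.66 RPKM after being listed at 0 in ESCs, followed by Twist1 at 25.0 ± 2.88 RPKM (log2 change 4.44) and the collagen gene Col1a1 at 23.7 ± 3.94 RPKM (4.56). In NPCs this sum was close to that of the SoxC genes. Prrx1, Postn, Dcn and Lum were below 1 RPKM in every NPC sample.

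Of 8 endoderm markers, 5 passed the filter, each through NPCs only, and 8 rose without a filter (100%), with sums of 0.105, 0.132 and 0.0889 RPKM in ESCs and 17.2, 19.6 and 18.5 RPKM in NPCs. Gata6 was the most abundant at 6.69 ± 0.337 RPKM (2.93), Gata4 rose by 2.74 and Foxa1 by 1.93, while Afp, Ttr and Cubn were below 1 RPKM in every NPC sample. Endothelium markers summed to between 1.06 and 1.47 RPKM in ESCs and 7.10 and 7.79 RPKM in NPCs. Of 6 such genes, Tie1 (1.87) and Kdr (1.86) passed the filter, through NPCs only, and Kdr was the most abundant at 2.94 ± 0.174 RPKM. Without a filter, 4 rose (66.7%), Pecam1, a junction protein of endothelium, fell from 1.10 to 0.433 RPKM in the mean (-0.55, limma, adjusted p = 0.00106), and Tek was at 0.120 and 0.0885 RPKM (adjusted p = 0.171). Neural crest and glia markers were low, with sums of 13.5, 14.2 and 10.8 RPKM in ESCs and 5.48, 5.31 and 5.03 RPKM in NPCs. Of these 9 genes, 3 were tested, of which Ets1 rose by 1.08 and Foxd3 (-2.24) and Ngfr (-0.67) fell, the latter not after rescaling to equal totals (-0.55, adjusted p = 0.137). Without a filter, 5 rose and 4 fell (55.6% and 44.4%). Ngfr was the most abundant in NPCs at 1.39 ± 0.0108 RPKM, and the defining marker Sox10 was at 0.0848 ± 0.0142 RPKM. The part of these tissues in the SoxC levels was not tested.

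The genes whose pattern was most like that of each SoxC gene were sought among the 7835 genes tested, by the root mean square difference over the 6 samples between log2(RPKM + 1) values centred on each gene's mean. For Sox11 these were Id2 (0.051), Myrf (0.061), Hoxb5 (0.075), Zfp703 (0.088) and Nr2f2 (0.091). Id2, an inhibitor of bHLH factors, went from 1.12 to 70.1 RPKM in the mean, and Nr2f2, a nuclear receptor that is also known as COUP-TFII, from 0.0524 to 34.5 RPKM. For Sox4 they were Vegfa (0.107), Efnb1 (0.110), Hoxb1 (0.111), St3gal1 (0.120) and S1pr3 (0.129), and for Sox12 Hif3a (0.059), Tns2 (0.066), Armcx3 (0.070), Stk26 (0.070) and Mxd4 (0.072). The SoxC genes were not among each other's 5 nearest genes, with a difference of 0.656 between Sox4 and Sox11, 0.728 between Sox4 and Sox12 and 1.364 between Sox11 and Sox12. For Sox11, Sox4 was at rank 59 and Sox12 at rank 271. For Sox4, Sox11 was at rank 217 and Sox12 at rank 257. For Sox12, Sox4 was at rank 1478 and Sox11 at rank 5404. The measure follows the size of the change between the cell types, since the samples fall into those groups.

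The position of the SoxC genes relative to NADs was a property that their choice did not use. The authors' lists give 1 score for each NAD, pooled over 2 experiments, so that positions and scores carry no replicate error and were not tested. No SoxC gene overlapped a NAD in either cell type, whereas 27.1% of the 21432 genes with a position did in ESCs and 21.6% in NPCs. Sox4 lay between NADs. In ESCs, the nearest was 49.0 kb downstream of the gene, from 28299627 to 28899923 on chromosome 13 with a score of 0.0435, above the median of 0.0256 of that list. In NPCs, the nearest was 349 kb away, from 25800492 to 28599894, with a score of 0.0433 in a list with a median of 0.0413. NADs took up 59.8% of the 1 Mb on each side of Sox4 in ESCs and 52.4% in NPCs.

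Less of the sequence around Sox11 and Sox12 lay in NADs than around Sox4. For Sox11, NADs took up 13.2% of the 1 Mb on each side in ESCs and 4.96% in NPCs, and the nearest lay 557.5 kb away in ESCs and 357.6 kb away in NPCs. For Sox12, the shares were 4.88% and 4.97%. Its nearest NAD was 902.1 kb upstream in ESCs, from 153300203 to 153399957 on chromosome 2, and 93.6 kb downstream in NPCs, from 152200405 to 152299989, with a score of 0.0584. With 100 kb added on each side of the genes, 2 of them reached a NAD, namely Sox4 in ESCs and Sox12 in NPCs, as did 39.8% of the genes with a position in ESCs and 32.2% in NPCs. The lists were normalized separately, and their scores were not compared across cell types.

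**Figure D3:**
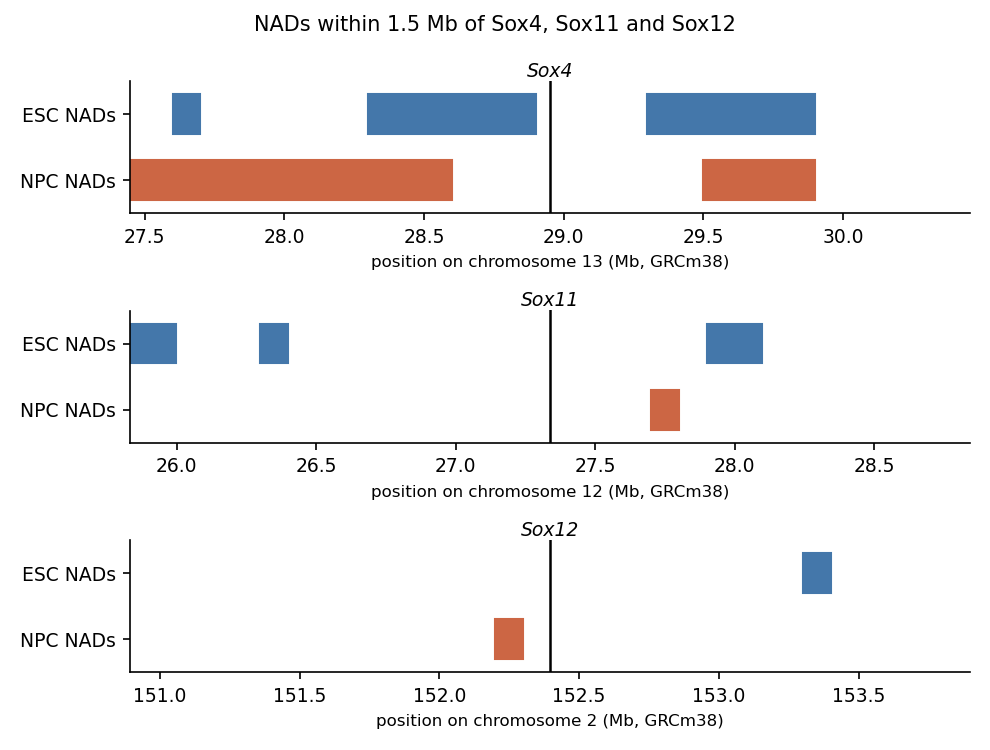
NADs of ESCs (blue) and NPCs (orange) within 1.5 Mb on each side of Sox4, Sox11 and Sox12, drawn to scale along the chromosome in Mb of GRCm38, with a vertical line at each gene. No NAD crosses a line, and the nearest are that of ESCs at 49.0 kb from Sox4 and that of NPCs at 93.6 kb from Sox12.

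Sox4 and Sox11 have few genes of the tables around them, and most of these were near 0 RPKM. The nearest genes of the tables were Cdkal1, 238 kb from Sox4 with 0.0375 ± 0.00331 RPKM in ESCs and 0.0322 ± 0.00184 RPKM in NPCs, and Cmpk2, 854 kb from Sox11 with 0.0218 ± 0.00746 and 0.153 ± 0.0164 RPKM. Of the 3 genes of the tables nearest to Sox4 on each side, only E2f3 was tested (log2 change 0.26, limma, adjusted p = 0.0654), and Gm11361, Prl5a1 and Prl4a1 were listed at 0 in every sample, while Mboat1 stayed below 0.1 RPKM. Of those nearest to Sox11, which also include Rsad2, Dcdc2c, Allc and Colec11, none passed the filter, and Rnf144a had the highest mean in NPCs, 1.02 ± 0.0807 RPKM against 0.0210 ± 0.00827 RPKM in ESCs. Sox12 has closer neighbours. Zcchc3, 13.9 kb away, rose from 13.9 ± 1.20 to 49.8 ± 0.485 RPKM (log2 change 1.78, limma, Benjamini-Hochberg adjusted p = 8.99e-06), a level in NPCs like that of Sox12 itself. Trib3, 49.6 kb away on the other side, fell from 12.4 ± 1.61 to 0.845 ± 0.0282 RPKM (-2.85, adjusted p = 1.02e-06), and Rbck1 had a log2 change of -0.21 (adjusted p = 0.0840). Nrsn2, 6820408C15Rik and Defb23 did not pass the filter.

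The coding sequences of the SoxC genes are alike, which matters for the assignment of reads. Each lies on a single exon in RefSeq (GRCm38.p6), with 1323 bases for Sox4, 1188 for Sox11 and 945 for Sox12. In global alignments, 73.2% of the aligned bases were identical between Sox4 and Sox11, 75.3% between Sox4 and Sox12 and 73.4% between Sox11 and Sox12. The stretch of 240 bases most alike, compared without gaps, had 89.6%, 86.2% and 84.2% identical bases in these pairs. The longest run that any pair shared had 48 bases and is shown because it bounds what a read can share. It lies in Sox4 at chr13:28952749-28952796 and in Sox11 at chr12:27342166-27342213, both on the minus strand.
Shared run of Sox4 and Sox11: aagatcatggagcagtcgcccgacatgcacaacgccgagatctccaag
The labels give a read length of 100 bases, but the sources differ on it and reads were trimmed. No window of 100 bases, and none of 50 bases, occurred in the transcripts of 2 SoxC genes, and none of Sox11 or Sox12 occurred in a transcript of another gene of GENCODE M21. Reads under 50 bases were not examined.

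The promoters of the SoxC genes are shown because the genes rose together. RefSeq windows from 250 bases before to 50 after the transcription start were found for each of the 3 genes, among 32851 windows in all. The windows had a GC share of 52.0% with 12 CpG for Sox4, 58.7% with 21 CpG for Sox11 and 76.7% with 47 CpG for Sox12, against medians of 52.7% and 7 over all windows. The 250 bases before the start follow, on the minus strand of GRCm38.p6 from 5′ to 3′, with capitals at matches to the E-box CANNTG, the motif of proneural bHLH factors.
Sox4 (chr13:28953700-28953949): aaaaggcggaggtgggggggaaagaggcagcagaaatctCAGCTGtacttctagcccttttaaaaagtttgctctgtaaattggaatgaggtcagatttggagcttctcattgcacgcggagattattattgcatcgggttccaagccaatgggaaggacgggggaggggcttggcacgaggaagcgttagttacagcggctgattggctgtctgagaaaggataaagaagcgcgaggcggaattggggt
Sox11 (chr12:27342719-27342968): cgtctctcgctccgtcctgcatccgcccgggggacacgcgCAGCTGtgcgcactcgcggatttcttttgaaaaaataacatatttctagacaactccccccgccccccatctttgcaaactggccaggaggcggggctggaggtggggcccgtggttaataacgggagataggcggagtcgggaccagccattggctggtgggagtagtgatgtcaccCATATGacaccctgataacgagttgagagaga
Sox12 (chr2:152398047-152398296): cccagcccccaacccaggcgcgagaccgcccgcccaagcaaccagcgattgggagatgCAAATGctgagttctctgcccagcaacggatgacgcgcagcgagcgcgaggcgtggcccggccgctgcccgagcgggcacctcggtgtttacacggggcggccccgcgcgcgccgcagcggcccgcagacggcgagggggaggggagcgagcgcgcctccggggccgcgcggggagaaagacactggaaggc
The E-box occurred 1 time in Sox4, 2 times in Sox11 and 1 time in Sox12, and 72.3% of all windows held it. In Sox4 and Sox11, a match with the same letters (CAGCTG) began 211 and 210 bases before the RefSeq start. The GENCODE starts differ from these. That of Sox11, at 27342574, lies outside its window, and that of Sox4, at 28953713, lies within the bases shown. The likeness of the 2 distances thus holds for the RefSeq starts only. Searched on both strands, the Sox core AACAAT (10.7% of all windows), the TATA box TATAAA (13.6%) and GATC (48.0%), the site that Dam methylates, did not occur in the windows of the SoxC genes. Motifs added after the sequences were seen were CCAAT, found 4 times in Sox4 and 1 time each in Sox11 and Sox12 (37.4% of all windows), and the POU octamer ATGCAAAT, found 1 time in Sox12 (1.74%), where it overlaps the E-box match. These matches describe the letters in the windows and were not tested.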

How the data were processed

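RNAseq was measured in 3 ESC and 3 NPC samples, and the authors deposited 1 table of RPKM per cell type, with each sample scaled on its own. Per the study's methods, the authors used SortMeRNA against rRNA reads, Trimmomatic for trimming, STAR for alignment to mm10 and their own pipeline for exon coverage. The submitters' processing notes name Bowtie2 2.3.4.3, Subread 1.4.6-p4 and deepTools 3.2.1 without their roles. The sources differ on kit (1 that keeps the strand is named), sequencer and read length, and neither annotation, strand use nor the handling of multi-mapped reads is stated in them. For NADs, the authors deposited a score for each domain common to both experiments, from Bowtie2, damidseq_pipeline and find_peaks.

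Here, symbols on several lines (153 of 21909) took the line with the highest mean. Genes with an RPKM of at least 1 in at least 3 samples (7835) were tested on log2(RPKM + 1) with limma 3.58.1 in R 4.3.3 (lmFit, eBayes with trend), with Benjamini-Hochberg adjustment and a threshold of 0.05, after a test on simulated data. In that simulation, 148 of 200 genes changed by 1 on the log2 scale were recovered (74%), with 13 false calls. Single values were tested with a two-sided exact permutation test, whose smallest p is 0.1. Python 3.11.15, numpy 2.4.6, pandas 2.3.3, Biopython 1.88 and matplotlib 3.10.9 did the rest. Positions came from GENCODE M21 and promoters from RefSeq, both on GRCm38. Proteins were not compared; coding bases were aligned instead. Read numbers are estimates from RPKM and exon length. Replicates were separate dishes.

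The members and gene lists were chosen with earlier results of these data known. Named were the SoxC genes, the other Sox genes, up to 3 genes that rose and 3 that fell and the most abundant gene of each list, the 5 genes most alike and the 3 nearest on each side, with Pou5f1 and Pax6 as checks of the labels; some results under this rule are not reported here. Other genes, such as those that did not pass the test or the filter, were named after their values were seen. Alternatives were other pseudocounts, filters and scalings, symbols on several lines left out, a replicate block, each sample left out, and other rules of NAD overlap. ChIPseq and input samples were not used here.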

Additional observations from a re-analysis of the deposited data

How the results depend on the processing

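Sox4, Sox11 and Sox12 rose with an adjusted p under 0.05 (limma) in each of 15 alternatives, by 3.60 to 5.20, 4.96 to 6.53 and 2.24 to 2.82 on the log2 scale, the highest values being those after rescaling to equal totals of 1000000, which also makes the pseudocount small against the values. Rescaling to the mean total, where it keeps its size, was chosen after seeing the data and gave 3.99, 5.30 and 2.69. With a sample left out in turn, the ranges were 3.60 to 3.81, 4.96 to 5.04 and 2.24 to 2.36. The filter on the mean of a cell type, at least 1 RPKM, was chosen after seeing the data and gave 5729 called genes, against 5500. Without a filter, 11454 of 18360 genes were called, since more genes were tested. Without ESC replicate 3, 6884 genes were called, and leaving out each sample gave 4616 to 6884. The split of rising and falling genes was 2894 to 2606 as deposited, 3382 to 2067 with the median ratio, 3658 to 1612 with the mean total and 3521 to 1585 with equal totals of 1000000. At least 2-fold rose 1301 genes as deposited, 1777 with the mean total, 1906 with a pseudocount of 0.1 and 2486 with equal totals of 1000000. The replicate block gave 5214 called genes and log2 changes of 3.71, 5.01 and 2.29 as before. Deviations of same-numbered samples from their group means correlated at r = 0.114, -0.083 and 0.032, against -0.09 to 0.089 for samples with other numbers. With 3 samples per cell type, these values cannot decide whether the numbers pair the samples. No SoxC gene overlapped a NAD under the other rules, except that 2 did with 100 kb on each side. The ratios of the SoxC genes and their sum kept their direction in every alternative run.

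Over 76 listed genes and 15 alternatives, 1107 results kept direction and side of the threshold, 10 lost and 8 gained the call in the same direction, and 15 changed sign, each of a gene that was not called as deposited. Of the 15, 6 passed the test in the new direction, namely Hdac2, Hes1 and Kdm1a with the mean total and with equal totals of 1000000. The changes of sign were, with the median ratio, Ezh2 (0.0102), Hdac2 (0.0870), Hes1 (0.13) and Kdm1a (0.14), with the mean total, Ezh2 (0.17), Hdac2 (0.28), Hes1 (0.34), Kdm1a (0.32) and Sin3a (0.13), with equal totals of 1000000, Ezh2 (0.22), Hdac2 (0.31), Hes1 (0.36), Kdm1a (0.37) and Sin3a (0.19), and without ESC replicate 3, Hes1 (0.0867; -0.137 to 0.0867 with each sample left out). These scalings raise NPC values against ESC values by construction. In ESCs, a library held about 62 to 135 reads of Sox4 and 136 to 200 of Sox11.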
